A study of Mus musculus with 9 samples.

Results

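The 9 genes described here are markers of homeostatic microglia, the resident macrophages of the brain in their resting state: P2ry12, P2ry13, Gpr34, Siglech, Tmem119, Cx3cr1, Sall1, Fcrls and Olfml3. They were chosen by symbol, and each was found as 1 row among the 53924 rows with a gene name. RNA from mouse cerebellum was sequenced in bulk, in 9 libraries of 3 groups. The PLX3AP mice had received 3-acetylpyridine (3-AP) after PLX3397, given to deplete microglia. The 3AP mice had received 3-AP without PLX3397, and the control mice saline (3 libraries each). 3-AP is a neurotoxin that kills inferior olive neurons, the source of climbing fibres, and leaves animals ataxic. PLX3397 blocks the receptor for CSF1, a survival signal of microglia and other macrophages. Mice given PLX3397 alone were not analysed here, so its effect without 3-AP was not measured. The sources used here give no strain, age, dose or time.

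Homeostatic microglia survey the tissue with fine processes. P2Y12 and P2Y13 are receptors for ADP, and P2Y12 steers the processes towards injured cells. GPR34 responds to lysophosphatidylserine, and CX3CR1 to fractalkine, which neurons make. Siglec-H is a receptor of the Siglec family that signals through the adaptor DAP12, the product of Tyrobp. TMEM119 and FCRLS are membrane proteins much used to identify microglia, and SALL1 is a transcription factor that maintains their identity. OLFML3 is a secreted olfactomedin-like protein, also known from vessels. In many injuries microglia lower part of this programme while they remain present.

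Libraries held 18452256 to 22358447 estimated counts, and 16634 genes could be tested. Values are given as CPM, the counts divided by TMM-adjusted library size. Cerebellar markers were present, with the Purkinje cell gene Pcp2 at 380 to 494 CPM and the granule cell gene Gabra6 at 435 to 639 CPM in all 9 libraries. The members were scarce transcripts, with 24 to 673 estimated counts per gene and library. A count of 24 has a 95% exact Poisson interval of 15.4 to 35.7, which covers counting error only. Nothing in the labels ties a library to 1 animal, so each p-value rests on the spread between libraries, and this may be technical. In bulk RNA, fewer microglia and less of an RNA per microglial cell cannot be told apart.

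Summed over the 9 members, libraries held 38.4, 41.0 and 57.4 CPM in PLX3AP, 113, 89.7 and 107 in 3AP and 67.7, 61.5 and 67.6 in control. All 3 PLX3AP sums lay below every control sum, and all 3 3AP sums above. For these genes the third PLX3AP library stood above the other PLX3AP libraries, with the highest value of its group for 8 of the 9 members. Over all genes it was the first PLX3AP library that differed most from its group, with a chi-square per degree of freedom of 28.3 and 27.3 against the second and the third, and 9.74 between these. Single members did not all follow the sum, as the plot of values by library shows.

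**Figure D1:**
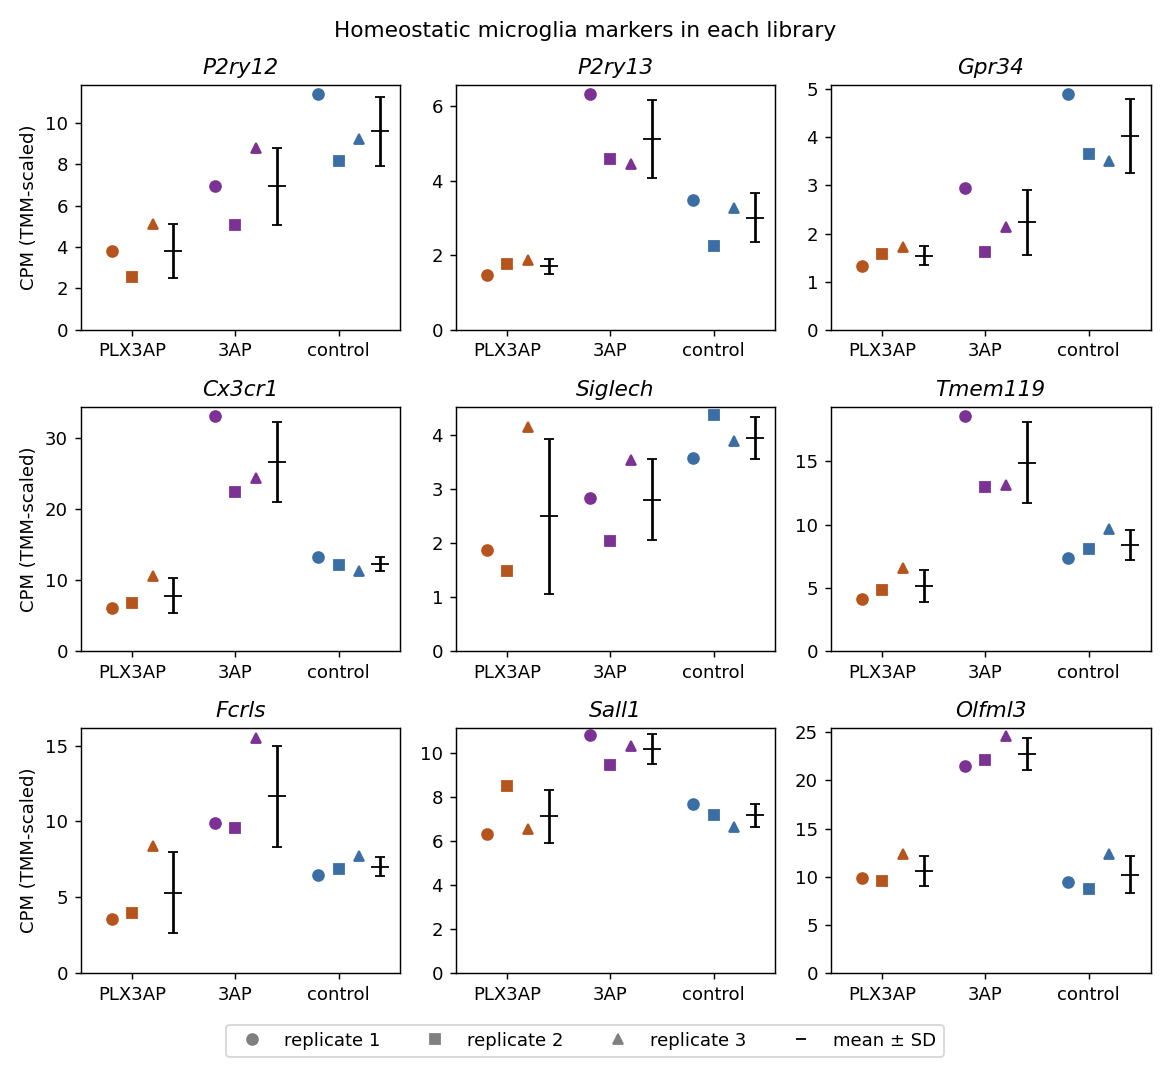
CPM (TMM-scaled) of each of the 9 markers on the y axis, from 0, with 1 point per library by group and replicate and the mean ± SD of 3 libraries as black bars. Cx3cr1, Olfml3, Tmem119 and P2ry13 peak in 3AP, while P2ry12, Gpr34 and Siglech have their highest group mean in control (9.61, 4.02 and 3.95 CPM).

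Among the receptors, Cx3cr1 was at 6.15, 6.73 and 10.6 CPM in PLX3AP, at 33.0, 22.4 and 24.3 in 3AP and at 13.3, 12.2 and 11.3 in control. All 3AP libraries lay above all others, and all PLX3AP libraries below the control libraries. Cx3cr1 rose in 3AP against control (log2 fold change 1.12, SE 0.20, n = 3 per group, edgeR adjusted p 0.0069) and fell in PLX3AP against 3AP (-1.76, SE 0.21, edgeR adjusted p 0.00041). In PLX3AP against control it did not pass (-0.64, SE 0.21, edgeR adjusted p 0.369). The gene of its ligand fractalkine, Cx3cl1, was measured at much the same level in all groups, at 80.4 ± 15.9 CPM in PLX3AP, 82.0 ± 14.4 in 3AP and 79.1 ± 1.99 in control (SD, n = 3 each). Its log2 fold changes of -0.03 (PLX3AP against 3AP, SE 0.15), 0.05 (3AP against control, SE 0.15) and 0.02 (PLX3AP against control, SE 0.15) did not pass.

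The 2 purinergic receptors P2ry12 and P2ry13 are neighbours on the minus strand of chromosome 3 (GRCm38, 59216272 to 59262871 and 59207892 to 59210882), and both lie inside Med12l, a Mediator subunit gene on the opposite strand. P2ry12 was at 3.79, 2.53 and 5.11 CPM in PLX3AP, at 6.97, 5.06 and 8.78 in 3AP and at 11.4, 8.17 and 9.21 in control. The PLX3AP values lay below all control values and overlapped those of 3AP by a single library. P2ry13 was at 1.48, 1.76 and 1.86 CPM in PLX3AP, at 6.33, 4.58 and 4.46 in 3AP and at 3.49, 2.26 and 3.27 in control, with no overlap between any pair of groups. P2ry13 fell in PLX3AP against 3AP (log2 fold change -1.58, SE 0.24, edgeR adjusted p 0.0018), to 33.4% of the 3AP level. It did not pass in 3AP against control (0.77, SE 0.23, edgeR adjusted p 0.087) or in PLX3AP against control (-0.82, SE 0.25, edgeR adjusted p 0.323).

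P2ry12 passed in none of the 3 comparisons with edgeR. Its log2 fold change was -0.87 in PLX3AP against 3AP (SE 0.27, adjusted p 0.127), -0.47 in 3AP against control (SE 0.25, adjusted p 0.391) and -1.34 in PLX3AP against control (SE 0.26, adjusted p 0.11). DESeq2 gave adjusted p of 0.043 for PLX3AP against 3AP and 0.00078 for PLX3AP against control. These neighbours thus had fold changes of opposite sign in 3AP against control. The sources used here do not say whether counting used the strand, so reads of Med12l could reach either row. Med12l had 51.5 ± 5.87 CPM in PLX3AP, 52.2 ± 4.73 in 3AP and 52.3 ± 8.70 in control (SD, n = 3 each), shares 9 exon bases with P2ry12 and none with P2ry13, and had log2 fold changes of -0.02 in PLX3AP against 3AP, -0.00 in 3AP against control and -0.02 in PLX3AP against control. P2ry14, another receptor gene of this family, was at 3.63 ± 0.566 CPM in PLX3AP, 3.62 ± 0.272 in 3AP and 4.09 ± 0.622 in control and did not pass.

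The windows around the start sites of this neighbouring pair are shown because the fold changes of the 2 genes in 3AP had opposite signs, although the ratio between them did not pass (exact permutation p 0.039, adjusted over the 36 pairs of members 0.071). The sequences are those of RefSeq on GRCm38.p6, minus strand, from 250 bases before to 50 after the start, at chr3:59262936-59263235 for P2ry12 and chr3:59210833-59211132 for P2ry13. The P2ry12 window lies wholly upstream of that gene as placed by GENCODE (start at 59262871), whereas the P2ry13 window reaches into its gene (start at 59210882). The 2 annotations thus place the start of P2ry12 differently. Capitals mark GAGGAAG, the core of the motif of PU.1, the myeloid factor encoded by Spi1.
P2ry12 window: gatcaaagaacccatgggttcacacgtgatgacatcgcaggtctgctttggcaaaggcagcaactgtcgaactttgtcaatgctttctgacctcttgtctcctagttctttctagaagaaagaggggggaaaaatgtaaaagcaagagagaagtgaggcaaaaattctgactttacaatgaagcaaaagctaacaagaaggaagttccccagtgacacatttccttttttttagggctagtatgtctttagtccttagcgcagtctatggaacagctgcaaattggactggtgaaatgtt
P2ry13 window: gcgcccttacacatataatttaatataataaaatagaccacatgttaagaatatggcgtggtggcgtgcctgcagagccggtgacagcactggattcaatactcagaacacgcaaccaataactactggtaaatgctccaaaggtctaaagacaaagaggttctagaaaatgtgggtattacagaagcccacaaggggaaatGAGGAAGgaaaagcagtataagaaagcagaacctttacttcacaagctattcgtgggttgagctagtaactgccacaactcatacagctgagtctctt
The P2ry13 window holds GAGGAAG from 48 to 42 bases before the start, and these letters are not in the P2ry12 window on either strand. Of 32851 such windows in the table, 13.6% hold them on either strand. Windows were found for 7 of the 9 members, and 2 members held these letters, P2ry13 and Fcrls, which was at 5.30 ± 2.65 CPM in PLX3AP, 11.7 ± 3.35 in 3AP and 7.02 ± 0.621 in control. The ETS-IRF composite motif was in none of them (2.72% of all windows), and CAGACA, bound by SMAD proteins, was in those of Fcrls and Siglech (21% of all). For MEF2 a loose pattern was searched, open to any base at its centre. This pattern was in the window of Cx3cr1 (3.69% of all windows), where the centre holds a G. That match therefore lacks the centre of only A and T of the stricter MEF2 motif, which was not searched. The TATA box TATAAA was in that of Fcrls (13.6%). A match is a description of letters, not a bound site.

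The last receptor, Gpr34, lies in an intron of Cask on the opposite strand (chromosome X, 13632089 to 13640858) and shares no exon base with it. It was at 1.32, 1.58 and 1.72 CPM in PLX3AP, at 2.95, 1.61 and 2.13 in 3AP and at 4.91, 3.65 and 3.51 in control. Every control library lay above all 6 libraries of mice given 3-AP, and the PLX3AP and 3AP values overlapped. The log2 fold change of Gpr34 was -0.85 in 3AP against control (SE 0.26, edgeR adjusted p 0.096), -1.38 in PLX3AP against control (SE 0.27, adjusted p 0.103) and -0.53 in PLX3AP against 3AP (SE 0.28, adjusted p 0.503). None passed with edgeR, and DESeq2 gave an adjusted p of 0.0066 for PLX3AP against control. Cask was at 60.9 ± 3.28 CPM in PLX3AP, 58.4 ± 5.96 in 3AP and 68.3 ± 4.85 in control and did not pass (log2 fold change -0.23, SE 0.09, edgeR adjusted p 0.211 in 3AP against control).

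Of the other surface proteins, Tmem119 was at 4.12, 4.88 and 6.59 CPM in PLX3AP, at 18.6, 13 and 13.1 in 3AP and at 7.37, 8.06 and 9.70 in control. The 3 groups did not overlap. Tmem119 fell in PLX3AP against 3AP (log2 fold change -1.51, SE 0.20, edgeR adjusted p 0.00067), to 35.0% of the 3AP level, and did not pass in PLX3AP against control (-0.69, SE 0.20, adjusted p 0.315). Its call in 3AP against control (0.83, SE 0.20, edgeR adjusted p 0.028) did not hold without 3AP replicate 1 (adjusted p 0.149) or without either of the first 2 control libraries (0.135 and 0.112).

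Fcrls was at 3.57, 3.98 and 8.35 CPM in PLX3AP, at 9.92, 9.55 and 15.5 in 3AP and at 6.48, 6.88 and 7.70 in control. The 3AP values lay above all others, and the third PLX3AP value above all control values. Fcrls did not pass in PLX3AP against 3AP (log2 fold change -1.13, SE 0.31, edgeR adjusted p 0.087), 3AP against control (0.73, SE 0.30, adjusted p 0.249) or PLX3AP against control (-0.40, SE 0.31, adjusted p 0.702). Without PLX3AP replicate 3 its fall against 3AP passed (-1.63, edgeR adjusted p 0.0028).

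Siglech, at 1.87, 1.49 and 4.15 CPM in PLX3AP, 2.85, 2.05 and 3.54 in 3AP and 3.59, 4.37 and 3.90 in control, was the member with the least difference between PLX3AP and 3AP (log2 fold change -0.17, SE 0.35, edgeR adjusted p 0.904). The 3AP libraries lay just below the control libraries, and the third PLX3AP library lay within the control range. Neither 3AP against control (-0.49, SE 0.34, edgeR adjusted p 0.529) nor PLX3AP against control (-0.65, SE 0.34, adjusted p 0.572) passed. Tyrobp, whose product carries the signal of Siglec-H, rose in 3AP against control (log2 fold change 1.33, SE 0.19, edgeR adjusted p 0.0011) and fell in PLX3AP against 3AP (-1.99, SE 0.20, adjusted p 7.6e-05), and did not pass in PLX3AP against control (-0.66, SE 0.20, adjusted p 0.327). It averaged 2.91 ± 0.641 CPM in PLX3AP, 11.6 ± 1.92 in 3AP and 4.62 ± 0.496 in control (SD, n = 3 each).

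Of the members with a positive log2 fold change in 3AP against control, the transcription factor gene Sall1 had the smallest. It was at 6.32, 8.49 and 6.54 CPM in PLX3AP, at 10.8, 9.45 and 10.3 in 3AP and at 7.66, 7.19 and 6.63 in control. The 3AP libraries lay above all others, and PLX3AP and control overlapped. The log2 fold changes were -0.52 in PLX3AP against 3AP (SE 0.15, edgeR adjusted p 0.1), 0.51 in 3AP against control (SE 0.15, adjusted p 0.082) and -0.01 in PLX3AP against control (SE 0.15, adjusted p 0.995). None passed.

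Olfml3, the secreted member, was at 9.83, 9.53 and 12.4 CPM in PLX3AP, at 21.5, 22.1 and 24.6 in 3AP and at 9.48, 8.73 and 12.4 in control. It rose in 3AP against control (log2 fold change 1.16, SE 0.15, edgeR adjusted p 0.00053) and fell in PLX3AP against 3AP (-1.10, SE 0.15, adjusted p 0.00071). PLX3AP and control overlapped (0.05, SE 0.15, edgeR adjusted p 0.938). Ly6c1, an endothelial surface gene, was at 52.9 ± 3.52 CPM in PLX3AP, 112 ± 7.42 in 3AP and 54.4 ± 5.17 in control, and the part of vessels in the values of Olfml3 was not tested.

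In all, edgeR called 4 of the 9 members lower in PLX3AP against 3AP (P2ry13, Tmem119, Cx3cr1 and Olfml3), where it called 3.16% of the 16634 tested genes lower. The median log2 fold change of the 9 was -1.10, against -0.01 over all tested genes, and the PLX3AP values lay below all 3AP values for 6 members (9.22% of all genes). In 3AP against control it called 3 members higher (Tmem119, Cx3cr1 and Olfml3), where it called 3.75% of all genes higher, and no member lower (1.18% of all genes), with a median of 0.73 against 0.00. The 3AP values lay above all control values for 6 members (13.6% of all genes) and below them for 2 (11%). P2ry12, Gpr34 and Siglech had negative log2 fold changes in that comparison, and the 6 other members positive ones. These comparisons share the 3AP libraries, so their values stand side by side and not as independent results. In PLX3AP against control edgeR called 0 of the 9 members, where it called 0.12% of all genes in either direction. Of the members, DESeq2 called 2 there (P2ry12 and Gpr34) and limma-voom 0, and the median was -0.65 against 0.00. Over all genes DESeq2 also called more than edgeR in this comparison, so its calls are not to be set against the edgeR share. The 3 values of PLX3AP lay below all those of control for 5 members, a pattern that 6.42% of all tested genes showed.

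**Figure D2:**
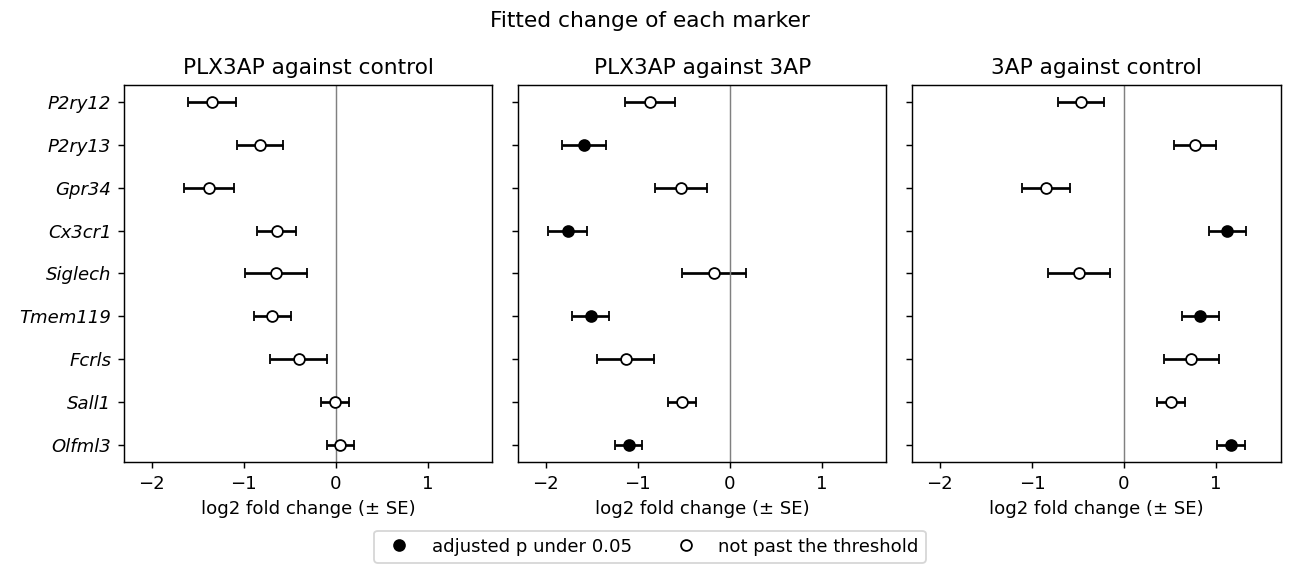
Fitted log2 fold change (x axis, ± SE) of each marker in the 3 comparisons, filled where the edgeR adjusted p is under 0.05. In PLX3AP against 3AP all 9 markers lie below 0, from -1.76 (Cx3cr1) to -0.17 (Siglech), while in 3AP against control P2ry12, Gpr34 and Siglech lie below 0 and the others above.

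Whether members differed from each other was tested on their ratios. For each of the 36 pairs the log2 ratio of CPM + 0.1 was compared across the 3 groups with a two-sided exact permutation test over the 9 libraries, with p adjusted over the 36 pairs (Benjamini-Hochberg), and 8 pairs passed. For 6 of them the p was 0.0036, the smallest that this design can give (adjusted over the 36 pairs 0.021). In 7 of the 8 pairs, P2ry12, Gpr34 or Siglech stood against a member with a positive log2 fold change in 3AP against control. Of all 36 pairs, 18 were of this kind. The signs come from these same libraries, which favours such pairs to pass, so the count of 7 is a description only. Of these 7 pairs Gpr34 was in 4, Siglech in 2 and P2ry12 in 1. Each member enters 8 of the 36 pairs, so the pairs are not independent. The count of 8 became 4 without control replicate 1, 2 or 3 or 3AP replicate 2, and 13 without PLX3AP replicate 3.

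The log2 ratio of P2ry12 to Cx3cr1 averaged -1.04 ± 0.35 in PLX3AP, -1.94 ± 0.42 in 3AP and -0.36 ± 0.19 in control (SD, n = 3 each; exact permutation p 0.0036). Every control library held more P2ry12 relative to Cx3cr1 than every other library, and every 3AP library held the least. The log2 ratio of Gpr34 to Tmem119 followed the same order, at -1.67 ± 0.18 in PLX3AP, -2.71 ± 0.20 in 3AP and -1.05 ± 0.44 in control (exact permutation p 0.0036). The log2 ratio of Siglech to Fcrls was -1.08 ± 0.24 in PLX3AP, -2.01 ± 0.22 in 3AP and -0.82 ± 0.16 in control (exact permutation p 0.0071), with PLX3AP and control overlapping. Cx3cr1 to Sall1 was the single passing pair of 2 members that both had positive log2 fold changes in 3AP against control. This log2 ratio was 0.11 ± 0.53 in PLX3AP, 1.36 ± 0.21 in 3AP and 0.77 ± 0.02 in control (exact permutation p 0.0036).

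Other pairs had similar mean ratios in all groups. P2ry13 to Tmem119 had log2 ratios of -1.53 ± 0.20 in PLX3AP, -1.52 ± 0.03 in 3AP and -1.46 ± 0.37 in control (exact permutation p 0.979). P2ry12 to Gpr34 had 1.21 ± 0.49 in PLX3AP, 1.60 ± 0.39 in 3AP and 1.24 ± 0.12 in control (exact permutation p 0.446), with overlap of all groups. A p that misses the threshold does not show that such ratios were equal.

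**Figure D3:**
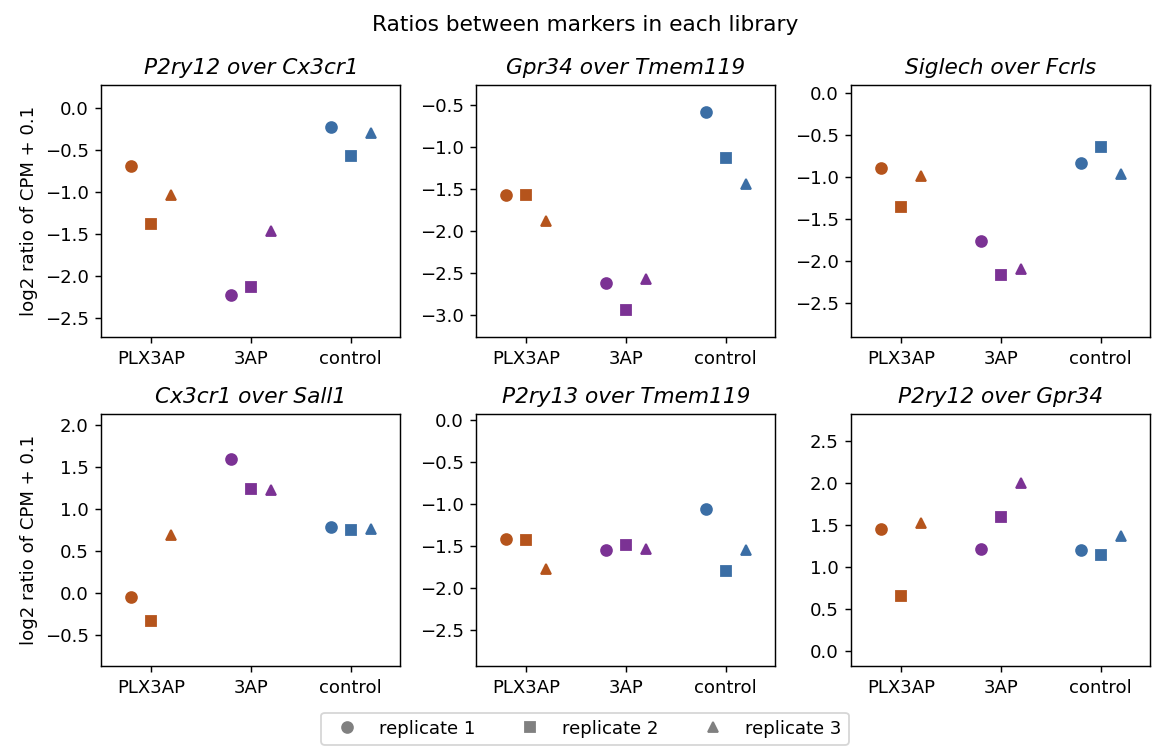
Log2 ratio of CPM + 0.1 (y axis, each panel spanning the same number of log2 units) between 6 pairs of markers, with 1 point per library by group and replicate. In the first 3 panels the 3AP libraries are lowest (for example -2.23 to -1.46 for P2ry12 over Cx3cr1), Cx3cr1 over Sall1 is highest in 3AP, and the last 2 pairs overlap between groups.

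Levels were compared between genes only per length, in the authors' TPM, which corrects for transcript length. In control P2ry12 was the highest member at 12.4 ± 1.82 TPM, beyond the spread of the next, Fcrls at 7.03 ± 0.700 TPM. In 3AP Cx3cr1 (12.6 ± 2.70 TPM) and Tmem119 (12.4 ± 2.94 TPM) were highest, with P2ry12 behind Fcrls at 8.09 ± 2.54 TPM, and no neighbours among the highest 5 differed beyond their spread. In PLX3AP Fcrls (5.89 ± 4.18 TPM), P2ry12 (4.60 ± 1.93 TPM) and Tmem119 (4.26 ± 1.25 TPM) were highest and likewise within their spread. The lowest was P2ry13 in PLX3AP (1.21 ± 0.198 TPM), Gpr34 in 3AP (2.18 ± 0.592 TPM) and P2ry13 in control (2.06 ± 0.445 TPM).

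As a share of the members' summed TPM, P2ry12 made up 15.0 ± 2.89% in PLX3AP, 12.5 ± 2.65% in 3AP and 25.3 ± 1.79% in control. Cx3cr1 made up 12.2 ± 0.575% in PLX3AP, 19.7 ± 2.44% in 3AP and 11.7 ± 0.865% in control. P2ry12 was thus the leading transcript in control, and Cx3cr1 and Tmem119 led in 3AP.

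**Figure D4:**
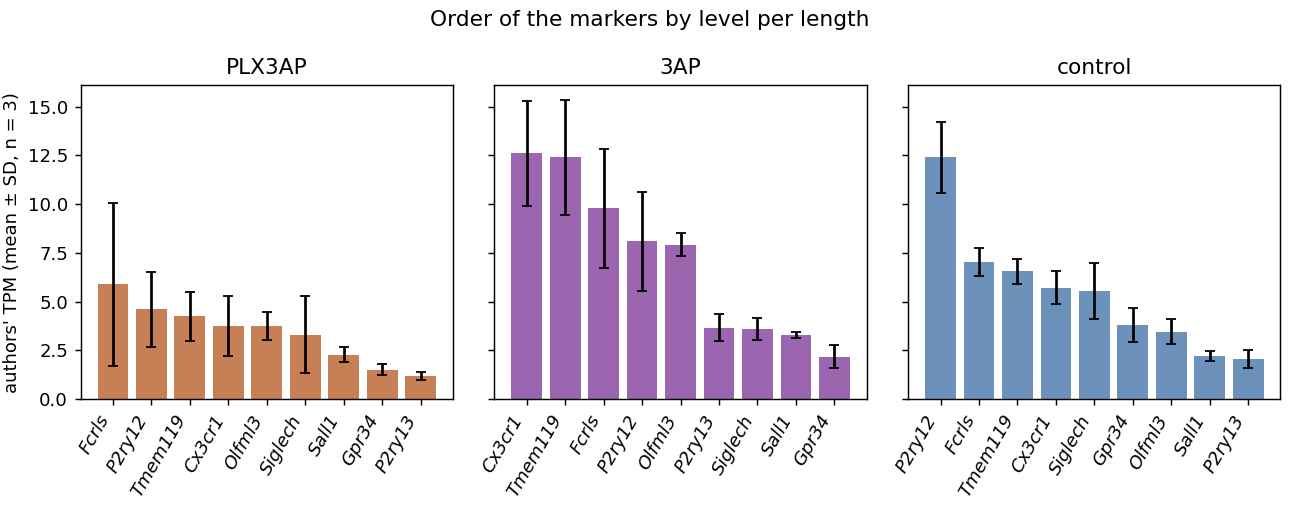
Authors' TPM (y axis, from 0) of the 9 markers, as bars of the mean of 3 libraries with the SD, in descending order within PLX3AP, 3AP and control. P2ry12 leads in control at 12.4 TPM, Cx3cr1 and Tmem119 in 3AP at 12.6 and 12.4 TPM, and Fcrls in PLX3AP at 5.89 TPM with a wide SD.

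Other genes of microglia served as a frame. Of 35 further microglial genes 34 could be tested. EdgeR called 22 of them lower and 0 higher in PLX3AP against 3AP (median log2 fold change -1.62), and 16 higher and 0 lower in 3AP against control (median 0.84). In PLX3AP against control it called 0 (median -0.60), while DESeq2 called 4 lower and limma-voom 0. Ctss, a lysosomal protease, averaged 20.7 ± 3.92 CPM in PLX3AP, 80.7 ± 6.33 in 3AP and 32.7 ± 2.28 in control, and fell in PLX3AP against 3AP (log2 fold change -1.96, SE 0.12, edgeR adjusted p 8.9e-06). C1qa, a chain of the complement initiator C1q, averaged 10.6 ± 2.77 CPM in PLX3AP, 51.8 ± 8.03 in 3AP and 16.7 ± 1.65 in control.

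Csf1r, the gene of the receptor that PLX3397 inhibits, was at 13.2, 17.4 and 24.9 CPM in PLX3AP, 60.8, 51.3 and 51.0 in 3AP and 34.7, 32.0 and 34.1 in control. It fell in PLX3AP against 3AP (log2 fold change -1.55, SE 0.18, edgeR adjusted p 0.00069), and did not pass in 3AP against control (0.69, SE 0.18, adjusted p 0.054) or in PLX3AP against control (-0.86, SE 0.18, adjusted p 0.188). Both comparisons with control passed when PLX3AP replicate 1 or 3 was left out of the fit, and neither did when any other single library was. Without PLX3AP replicate 2 the edgeR adjusted p was 0.499 for PLX3AP against control and 0.08 for 3AP against control. For PLX3AP against control the edgeR adjusted p was 0.049 without PLX3AP replicate 1 (-0.68) and 0.0058 without PLX3AP replicate 3 (-1.14), and for 3AP against control 0.005 and 0.0034 (0.69 in both). Itgam, a chain of complement receptor 3, averaged 4.14 ± 1.29 CPM in PLX3AP, 28.5 ± 7.06 in 3AP and 6.73 ± 1.19 in control (SD, n = 3 each). Its log2 fold changes were -2.78 in PLX3AP against 3AP (SE 0.24, edgeR adjusted p 5.8e-05), 2.08 in 3AP against control (SE 0.23, adjusted p 0.0003) and -0.70 in PLX3AP against control (SE 0.25, adjusted p 0.415). Aif1, the gene of Iba1, averaged 0.657 ± 0.204 CPM in PLX3AP, 3.87 ± 0.271 in 3AP and 1.00 ± 0.529 in control. It fell in PLX3AP against 3AP (-2.55, SE 0.40, edgeR adjusted p 0.002), rose in 3AP against control (1.95, SE 0.38, adjusted p 0.0087) and did not pass in PLX3AP against control (-0.60, SE 0.42, adjusted p 0.668). Selplg, the gene of the selectin ligand PSGL-1 and also a homeostatic microglia gene, fell in PLX3AP against 3AP (-1.82, SE 0.22, edgeR adjusted p 0.00034).

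Of 10 factors that act in microglia, 4 were called lower in PLX3AP against 3AP and 3 higher in 3AP against control. The count of 3 was 1 without 3AP replicate 1, and 2 without 3AP replicate 2 or 3 or any 1 of the control libraries. Some uncalled factors were abundant, such as Mef2a at 150 ± 23.8 CPM in PLX3AP, 154 ± 5.27 in 3AP and 163 ± 15.5 in control. How much of their RNA comes from microglia was not tested. Spi1, the gene of PU.1, fell in PLX3AP against 3AP (log2 fold change -2.61, SE 0.36, edgeR adjusted p 0.00088) and rose in 3AP against control (1.74, SE 0.34, adjusted p 0.009). Ikzf1, a lymphoid and myeloid zinc finger factor, fell in PLX3AP against 3AP (-2.07, SE 0.32, edgeR adjusted p 0.0018), and its rise in 3AP against control (1.61, SE 0.31, adjusted p 0.0077) was lost without 3AP replicate 1 (0.052). Their log2 fold changes were larger than those of Sall1, a difference that was not tested.

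TGF-beta keeps microglia in their homeostatic state, and of 9 genes of this route 2 were called lower in PLX3AP against 3AP (Tgfbr2 and Nrros) and 2 higher in 3AP against control. Tgfbr2, a receptor chain, was at 17.1 ± 1.92 CPM in PLX3AP, 30.2 ± 0.692 in 3AP and 18.2 ± 0.657 in control. Itgav, an integrin chain that helps activate latent TGF-beta, rose in 3AP against control (log2 fold change 0.41, SE 0.08, edgeR adjusted p 0.0094). Nrros, which anchors latent TGF-beta on microglia, fell in PLX3AP against 3AP (-0.60, SE 0.13, edgeR adjusted p 0.025), a call lost without 3AP replicate 2 (0.087), 3AP replicate 3 (0.059), PLX3AP replicate 1 (0.068) or PLX3AP replicate 3 (0.118), each of which leaves 1 call in this comparison.

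Of 14 genes for ligands and signalling partners of the members, 3 were called lower in PLX3AP against 3AP and 2 higher in 3AP against control. Besides Tyrobp these were Pla1a, a phospholipase that makes lysophosphatidylserine, the ligand of GPR34, at 1.35 ± 0.255 CPM in PLX3AP, 6.21 ± 1.39 in 3AP and 1.37 ± 0.122 in control. The third, named after its values were seen, was Entpd1, an ectoenzyme that breaks down ATP and ADP, lower in PLX3AP against 3AP (log2 fold change -0.86, SE 0.13, edgeR adjusted p 0.0015).

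Markers of other myeloid cells differed between the groups. The summed level of 12 genes of border-associated macrophages was 4.50 to 8.64 CPM in PLX3AP, 41.6 to 45.0 in 3AP and 25.9 to 30.5 in control. EdgeR called 9 of the 10 tested lower in PLX3AP against 3AP and 5 lower in PLX3AP against control, among them F13a1 (log2 fold change -3.28, SE 0.36, edgeR adjusted p 0.0035) and Stab1 (-1.55, SE 0.16, adjusted p 0.0021). Without PLX3AP replicate 2 this last count was 3. In 3AP against control edgeR called 3 of the 10 higher (F13a1, Stab1 and Siglec1) and 0 lower, with a median log2 fold change of 0.24. The Stab1 call was lost without 3AP replicate 1 (edgeR adjusted p 0.088) or 2 (0.09) or control replicate 1 (0.102) or 2 (0.106). Each of these leaves 2 genes of the list called higher. Other genes of the list had similar levels there, such as the scavenger receptor gene Cd163 at 2.44 ± 0.342 CPM in 3AP and 2.35 ± 0.315 in control, and the mannose receptor gene Mrc1 at 5.09 ± 2.21 CPM in 3AP and 4.71 ± 0.351 in control. The summed level of 18 blood leukocyte genes was 18.8 to 26.0 CPM in PLX3AP, 36.8 to 52.5 in 3AP and 18.3 to 23.1 in control, with 4 to 9 of them at 0 in PLX3AP libraries, 2 to 4 in 3AP and 4 to 8 in control. Napsa, an aspartic protease gene singled out after its values were seen, made up most of the sum in PLX3AP and control, at 20.3 ± 3.13 CPM in PLX3AP, 22.6 ± 1.19 in 3AP and 16.9 ± 1.05 in control. The other 17 genes summed to 1.85 to 3.01 CPM in PLX3AP, 13 to 31.1 in 3AP and 1.87 to 4.92 in control. EdgeR called 6 of the 8 tested lower in PLX3AP against 3AP (3 without 3AP replicate 1), and 5 higher in 3AP against control (3 without 3AP replicate 1, 3AP replicate 2 or control replicate 1, and 2 without control replicate 2). Within this list Ccr2 ranged from 0 to 1.23 CPM, with means of 0.046 ± 0.0452 in PLX3AP, 0.798 ± 0.384 in 3AP and 0.135 ± 0.109 in control. S100a9 was at 0.356 ± 0.107 CPM in PLX3AP, 6.71 ± 3.21 in 3AP and 0.695 ± 0.585 in control. Not every gene of the list was highest in 3AP, as Cd79a was at 0.188 ± 0.117, 0.277 ± 0.123 and 0.313 ± 0.0969 CPM in the same order. Some blood leukocytes also express Cx3cr1, and their part in the members' values was not tested.

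Of neurons, other glia, and mural cells and fibroblasts, 0 of 10, 1 of 11 and 3 of 12 genes were called lower in PLX3AP against 3AP. In 3AP against control edgeR called 1 neuronal gene lower, 1 gene of other glia higher and 2 lower, and 1 of mural cells and fibroblasts higher. In PLX3AP against control it called 1 gene of other glia lower. Several of these calls depended on single libraries. In 3AP against control the neuronal count was 0 without any 1 of the control libraries or without PLX3AP replicate 2 or 3, and 2 without PLX3AP replicate 1. The gene of other glia called higher was lost without any 1 of the control libraries. The count of other glia genes called lower was 1 without 3AP replicate 1 or 2 or control replicate 1, and 3 without PLX3AP replicate 3. The call in other glia in PLX3AP against 3AP was lost when any 1 library other than 3AP replicate 1 or 3 was left out. Other glia had 2 genes called lower in PLX3AP against control without PLX3AP replicate 1. Without that library 2 genes of mural cells and fibroblasts were called lower in 3AP against control, and without 3AP replicate 3 there were 2 called higher.

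Of 16 tested genes of disease-associated microglia, the state that follows injury, 4 were called lower in PLX3AP against 3AP and 6 higher in 3AP against control. Lyz2, the lysozyme of macrophages, was at 3.36 ± 0.233 CPM in PLX3AP, 39.0 ± 12.8 in 3AP and 9.85 ± 1.31 in control. Ch25h, which makes 25-hydroxycholesterol, was at 0.292 ± 0.119 CPM in PLX3AP, 4.44 ± 1.47 in 3AP and 0.364 ± 0.0675 in control. Other genes of this list had higher means in PLX3AP than in control without passing. Gpnmb, a membrane glycoprotein gene, was at 3.59 ± 0.699 CPM in PLX3AP, 8.54 ± 2.21 in 3AP and 1.85 ± 0.404 in control (PLX3AP against control 0.96, SE 0.26, edgeR adjusted p 0.279). Lgals3, the gene of galectin-3, was at 2.25 ± 0.352 CPM in PLX3AP, 4.85 ± 1.56 in 3AP and 1.55 ± 0.529 in control. Over the 16 genes the median log2 fold change was -0.23 in PLX3AP against 3AP, 0.21 in 3AP against control and 0.14 in PLX3AP against control. These medians include abundant genes of similar level in all groups, such as Apoe at 1580 ± 170 CPM in PLX3AP, 1410 ± 140 in 3AP and 1420 ± 123 in control. Ctsb was at 756 ± 58.7 CPM in PLX3AP, 725 ± 47.3 in 3AP and 695 ± 32.4 in control. How much of their RNA comes from microglia was not tested.

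Genes with the pattern most like each member were ranked by the root mean square difference of log2 CPM, centred on the mean of the 9 libraries, among genes with a mean of at least 1 CPM. A value of 0 would mean equal profiles. For Cx3cr1 the nearest were Inpp5d, a lipid phosphatase gene (0.11), and Laptm5, a lysosomal protein gene that is among the further microglial genes above (0.11). For Tmem119 they were Csf1r (0.16) and Cd84 (0.16), and for P2ry13 Kcnk6 (0.21) and Csf1r (0.21), while these 2 members lay 0.20 from each other. P2ry12 and Gpr34 were each other's nearest member (0.35), and no member lay nearer to Siglech than P2ry12 (0.37).

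Outside the members, Gpr34 was nearest to Nostrin (0.25) and Neu4 (0.27), P2ry12 to Abca9 (0.34) and Zbtb16 (0.35), and Siglech to Ddit4l (0.25) and Hhip (0.27). None of these 6 belongs to the microglial lists used here. Fcrls was nearest to Itga10 (0.20) and Smagp (0.23), and Olfml3 to Srgn (0.13), a proteoglycan of blood cells and endothelium, and Ly6c1 (0.15). Sall1 was nearest to Notch4, an endothelial Notch receptor (0.12), and Fmnl3 (0.13). Of the 14829 genes with at least 1 CPM, 11566 lay nearer to Sall1 than the nearest member did (Olfml3, 0.39). For the other members this count ran from 0 (P2ry13) to 298 (Olfml3), with 13 for Cx3cr1. The distance is not scaled for the size of changes, so genes that change little lie near a member with small changes such as Sall1. The count is therefore no measure of likeness in pattern. The profiles share libraries and depth, and the distances are a description without a test.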

How the data were processed

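Total RNA of 9 mouse cerebella libraries was sequenced, and libraries were grouped as their titles give. Per the submitters' processing notes, fastp, HISAT2, StringTie and RSEM were used on mm10. The sources used here give no versions, annotation or strandedness. The deposited expected counts are reads estimated per gene, not normalised. The deposited TPM are scaled by the authors to transcript length and library total. The 1884 unnamed rows held 0.526 to 0.660% of each library and were dropped.

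Rounded counts were analysed with edgeR 4.0.16 in R 4.3.3 (filterByExpr, TMM, robust quasi-likelihood fit of all 9 libraries, tested on simulated data), with two-sided p adjusted by Benjamini-Hochberg over 16634 genes and calls under 0.05. CPM and log2 fold changes were computed here. The SE is the fold change over the square root of F. Alternatives used DESeq2 1.42.0, limma 3.58.1 on TPM and voom weights, other scaling, no filter, single comparisons, a replicate block and leaving out each library. Within groups, chi-square per degree of freedom was 4.80 to 28.3, so no pair agreed within sampling noise.

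Members, lists and tests were chosen with earlier results of these data known. Named were all members, Csf1r, Aif1, Itgam, Cx3cl1 and Tyrobp, genes with the smallest adjusted p of each list, the 2 nearest patterns per member, and neighbours in the genome. Coordinates and overlaps are from GENCODE M21 (GRCm38). Gene start windows are from RefSeq.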

Additional observations from a re-analysis of the deposited data

How the results depend on the processing

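Of 486 values of single members recomputed under the alternatives, 11 changed sign, none of them in a comparison that was called. Leaving out single libraries, the log2 fold change of Siglech in PLX3AP against 3AP ranged from -0.75 to 0.10, and in PLX3AP against control that of Sall1 from -0.16 to 0.06 and of Olfml3 from -0.08 to 0.22. Sall1 was at 0.03, 0.02 and 0.03 there with limma-trend on log2(TPM + 0.1), log2(TPM + 1) and log2(TPM + 0.1) without a filter. Leaving out single libraries, 4 to 5 members were called in PLX3AP against 3AP, 2 to 3 in 3AP against control and 0 in PLX3AP against control, and 19 to 23, 14 to 19 and 0 to 3 of the other microglial genes (3 without PLX3AP replicate 1 or 3). Over all genes the counts were 401 to 715 (621 with all libraries; lowest without 3AP replicate 1), 466 to 991 (820; 466 and 504 when 3AP replicate 1 or 2 was left out, 487 and 515 when control replicate 1 or 2 was) and 7 to 153 (20; 153, 7 and 13 without PLX3AP replicate 1, 2 and 3, and 8 without control replicate 1 or 2). Passing ratio pairs numbered 4 to 13. With limma-trend on TPM without a filter, 1 member was called in 3AP against control (Olfml3), where 416 genes were called, with 341 in PLX3AP against 3AP and 5 in PLX3AP against control. In PLX3AP against control, DESeq2 called 2 members, 4 other microglial genes and 110 genes, no filter on low counts 2, 2 and 71, and limma-trend on log2(TPM + 1) 9 genes. The causes were not tested.

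Deviations from the group mean had correlations of -0.203 to 0.0931 between same-numbered libraries of different groups, and of -0.112 to 0.232 between differently numbered ones. With 3 libraries per group these values cannot decide whether the numbers pair the libraries. With the replicate number as a block, 6 members were called in PLX3AP against 3AP, 2 in 3AP against control and 0 in PLX3AP against control, and 504, 580 and 10 genes.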

Other observations

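The authors' TPM and the CPM computed from their counts did not keep 1 ratio per gene. TPM per CPM ranged between libraries from 1.02 to 1.61 for P2ry12, from 0.819 to 1.28 for Fcrls and from 1.08 to 1.63 for Siglech, against 0.746 to 0.856 for Tmem119 and 0.431 to 0.519 for Cx3cr1. For Fcrls in the third PLX3AP library, TPM (10.7) lay above all control values (6.33 to 7.73), as did CPM (8.35, against 6.48 to 7.70). For P2ry12 the first 3AP library had 9.13 TPM and 6.97 CPM and the second 5.19 TPM and 5.06 CPM.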
